A study of Mus musculus with 14 samples.

Results

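The transcripts of 9 potassium channel genes, Kcnd2, Kcnd3, Kcnip2, Kcnv2, Kcna5, Kcnj2, Kcnj3, Kcnj11 and Kcnq1, were followed through 14 mouse heart libraries. The 9 were named by symbol, each matched 1 Ensembl gene identifier among 51912 gene rows, and all 9 were among the 15651 genes that passed the filter on low counts. The mice were on the C57BL/6J background and were wild type (WT) or labelled knockout for Clk3, a kinase of splicing factors. They had either transverse aortic constriction (TAC), a surgical narrowing of the aorta that loads the left ventricle with pressure, or a sham operation. There were 4 wild-type sham hearts, 4 knockout sham hearts, 2 wild-type TAC hearts and 4 knockout TAC hearts. All TAC hearts came from mice aged 10 weeks, and each sham group held 2 hearts from mice aged 10 weeks and 2 from mice aged 11 weeks. The labels do not say how the knockout allele was made, how long the constriction lasted, which chambers were taken or whether RNA of several animals was pooled. The replicates are separate samples in the labels, so the p-values cover only how these samples vary, which may be technical.

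Potassium channels let potassium ions leave the heart muscle cell, which ends each action potential and holds the cell at rest between beats. The fast transient outward current of early repolarisation runs through pores built from Kcnd2 and Kcnd3 with the calcium-binding accessory subunit Kcnip2. Later repolarisation uses delayed rectifiers, among them Kcna5 and Kcnq1, and the resting potential is held by inward rectifiers such as Kcnj2. Kcnj3 forms channels opened by acetylcholine through G proteins, and Kcnj11 forms the pore of channels that open when cellular ATP falls. A prolonged action potential with smaller repolarising currents is a known feature of pressure-loaded ventricles.

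The table of gene starts held a promoter for 6 of the 9 genes (RefSeq, GRCm38.p6). The stretches of 250 bases before the start of the 4 of them whose transcripts fell with TAC are shown, because the results turn on these genes. Short motifs were searched on both strands. The first was CACGTG, an E-box, which clock factors and other basic helix-loop-helix proteins bind. The second was GGGCGG, known as a GC box. The third was CACCC, which Krüppel-like factors bind. The fourth was TATAAA, known as a TATA box. The last was AGATAA, which GATA-family proteins bind. Capitals mark matches to any of these motifs on either strand, and no matches overlapped in the sequences shown.
Kcnd2: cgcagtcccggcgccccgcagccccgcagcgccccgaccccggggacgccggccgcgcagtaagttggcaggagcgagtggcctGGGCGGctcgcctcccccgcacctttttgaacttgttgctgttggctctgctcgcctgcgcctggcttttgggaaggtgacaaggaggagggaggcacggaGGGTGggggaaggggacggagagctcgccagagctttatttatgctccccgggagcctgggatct
Kcnd3: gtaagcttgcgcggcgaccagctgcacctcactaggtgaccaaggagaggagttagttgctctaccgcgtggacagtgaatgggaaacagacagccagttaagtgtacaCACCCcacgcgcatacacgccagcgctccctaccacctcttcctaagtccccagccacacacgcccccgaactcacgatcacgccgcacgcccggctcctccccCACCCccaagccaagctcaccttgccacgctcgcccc
Kcnj2: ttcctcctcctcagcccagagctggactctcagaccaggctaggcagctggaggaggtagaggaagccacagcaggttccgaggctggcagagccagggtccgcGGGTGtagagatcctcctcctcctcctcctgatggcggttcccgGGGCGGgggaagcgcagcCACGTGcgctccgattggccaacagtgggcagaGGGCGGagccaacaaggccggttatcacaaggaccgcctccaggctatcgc
Kcnj3: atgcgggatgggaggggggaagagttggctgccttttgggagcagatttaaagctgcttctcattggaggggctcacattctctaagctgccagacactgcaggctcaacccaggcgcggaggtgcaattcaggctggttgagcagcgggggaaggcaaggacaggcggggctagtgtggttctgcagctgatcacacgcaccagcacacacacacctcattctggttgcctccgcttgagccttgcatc
The windows lie on the plus strand at chr6:21215096-21215345, chr3:105451640-105451889, chr11:111065914-111066163 and chr2:55435720-55435969. Kcnj2 held the only CACGTG, 84 bases before its start, among the 6 promoters read. That motif occurred in 6.05% of 27025 promoters of the same length. GGGCGG, present in 32.9% of all promoters, occurred in Kcnd2, Kcnj2 and Kcnip2. CACCC, present in 51.3%, occurred in every promoter read except that of Kcnj3. TATAAA (13.0% of promoters) and AGATAA (10.3%) occurred in none of the 6 windows. The matches describe these letters and do not show binding.

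The libraries held 11385818 to 20369637 gene counts, and levels are given as CPM, a gene's count relative to the effective size of its library, with factors from the trimmed mean of M values. Clk3, the targeted gene, was at 73.2 to 96.0 CPM in the wild-type sham hearts, at 62.8 to 67.4 in the knockout sham hearts and at 50.7 to 64.9 in the knockout TAC hearts. Clk3 was thus still counted in every knockout library. The library labelled wild-type TAC 1 held Clk3 at 54.2 CPM, within the range of the knockout libraries, and wild-type TAC 2 held 92.3 CPM. Gm8730, which separates the genotypes in all other libraries (57.4 to 67.1 CPM in knockouts against 1.26 to 1.63 in wild types), was at 66.8 CPM in that library, which therefore goes against its genotype label. Its Nppa level of 1912 CPM followed its TAC label (1808 CPM in wild-type TAC 2, 639 to 1119 in knockout TAC hearts and 104 to 235 in all sham hearts). A clock gene score (mean log2 CPM of Arntl, Npas2 and Clock minus that of Nr1d1, Nr1d2, Dbp, Per3 and Ciart) also set libraries apart. It lay between −3.40 and −2.89 in all sham hearts except knockout sham 4, at −1.12, and between −1.14 and −0.76 in all TAC hearts except knockout TAC 3, at −2.67. For the members, values without these libraries are given beside the results they touch.

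The defining atrial transcripts Myl7, Sln and Bmp10 averaged at most 0.34 CPM in each group, while the ventricular markers summed to between 35620 and 47126 CPM in every library. The 10 atrial markers together summed to 91.7 to 103 CPM in wild-type sham, 79.5 to 106 in knockout sham, 79.0 to 98.5 in the wild-type TAC hearts and 73.2 to 99.0 in the knockout TAC hearts. Macrophage markers summed to 332 to 336 CPM in wild-type sham and 419 to 531 in wild-type TAC hearts, and to 242 to 337 in knockout sham and 345 to 439 in knockout TAC hearts. Fibroblast markers summed to 2197 to 2891 CPM in wild-type sham, 3059 to 3462 in wild-type TAC, 1988 to 2371 in knockout sham and 2368 to 2713 in knockout TAC hearts. The part of these cell markers in the channel results was not tested, and in bulk tissue fewer cells of a type and less RNA per cell cannot be told apart.

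In wild-type sham hearts the 9 transcripts spanned a wide range of level per length, given as CPM divided by merged exon length in kilobases (RPKM). Kcnip2 was highest at 77.1 ± 7.68 RPKM (SD, n = 4), followed by Kcnj11 at 50.8 ± 2.72. Kcnj3 (21.3 ± 2.05) and Kcnj2 (19.7 ± 1.80) came next and lay within each other's spread. Kcnd2 (10.6 ± 1.54), Kcnq1 (10.4 ± 1.02) and Kcna5 (8.53 ± 2.23) formed a group whose neighbours also did not differ beyond their spread. Kcnv2 (3.99 ± 0.20) and Kcnd3 (2.90 ± 0.36) were lowest. With coding counts per coding length the first 4 and the last 2 kept their places, while Kcnd2 moved from rank 5 to rank 7.

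**Figure D1:**
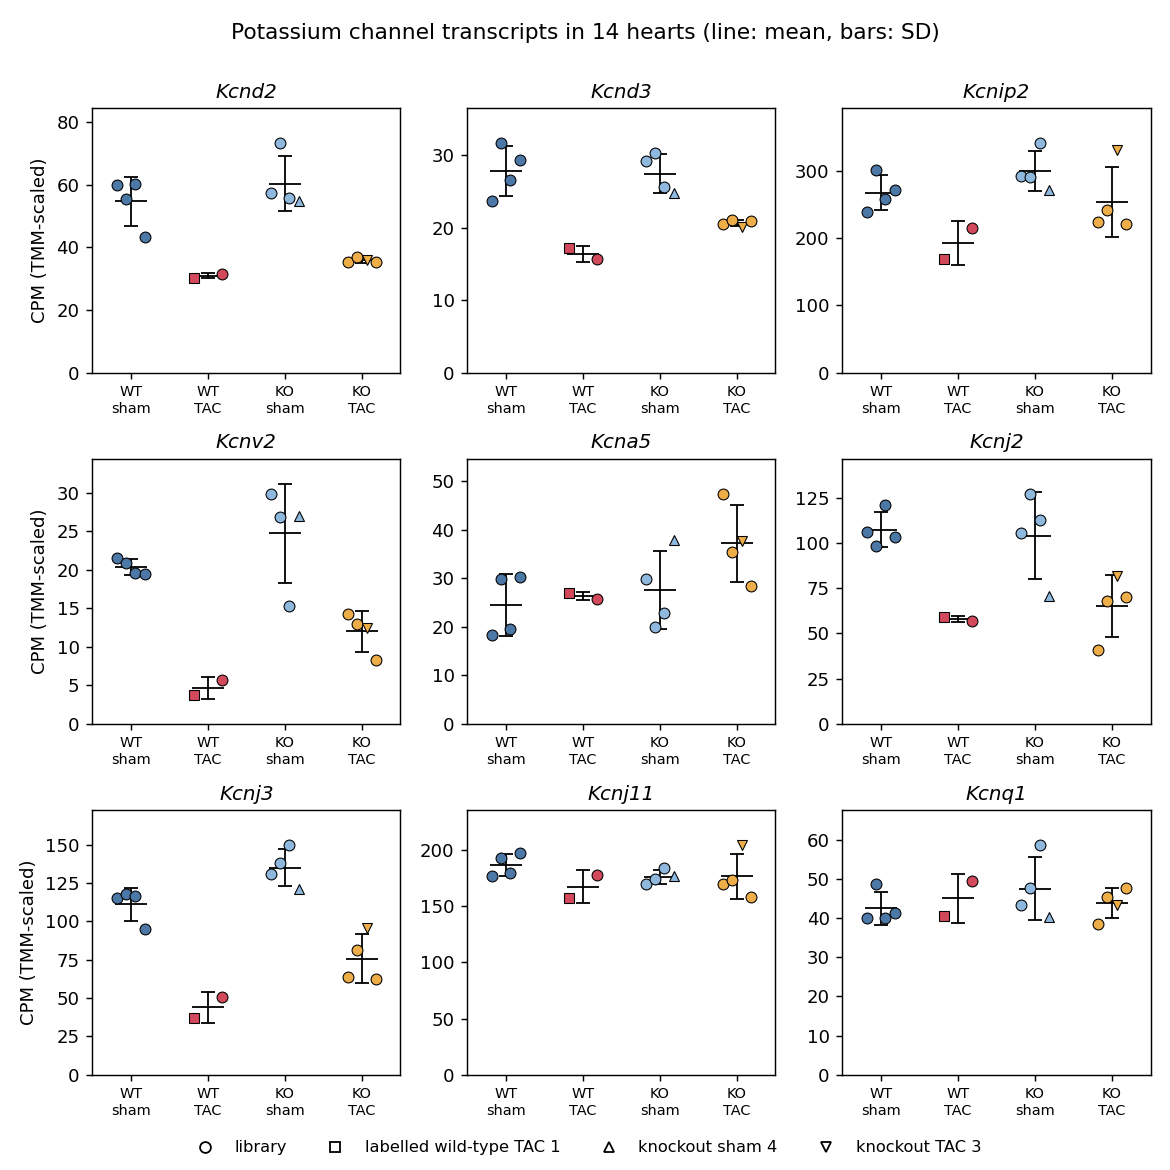
Level of each of the 9 channel transcripts in every library, in CPM from 0 on the vertical axis, by group on the horizontal axis (WT, wild type, and KO, knockout). Each point is 1 library, the horizontal line is the group mean and the bars are its SD. A square marks the library labelled wild-type TAC 1, an upward triangle knockout sham 4 and a downward triangle knockout TAC 3. For Kcnd2, Kcnd3, Kcnv2 and Kcnj3 no TAC heart reached the sham range of its genotype.

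TAC was compared with sham in each genotype to see how these transcripts differed under pressure load in each Clk3 genotype. In wild-type hearts 5 of the 9 fell, Kcnv2, Kcnj3, Kcnj2, Kcnd2 and Kcnd3, by 0.77 to 2.11 on the log2 scale, and none rose (edgeR's quasi-likelihood test, adjusted p under 0.05). Among all tested genes 12.2% passed in either direction and 5.3% passed as lower. The same 5 of 9 fell in the knockout hearts, by 0.41 to 1.05, against a background of 13% in either direction and 6.26% lower. The median log2 change of the 9 was −0.77 in wild type and −0.41 in knockout, beside −0.002 and −0.005 over all tested genes. No overlap between TAC and sham libraries, with TAC lower, was seen for 6 of the 9 in wild type and 4 of the 9 in knockout, beside 14.2% and 11.2% of all tested genes. Kcnip2, Kcnj11, Kcnq1 and Kcna5 did not pass in either genotype. The 2 comparisons share no library.

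**Figure D2:**
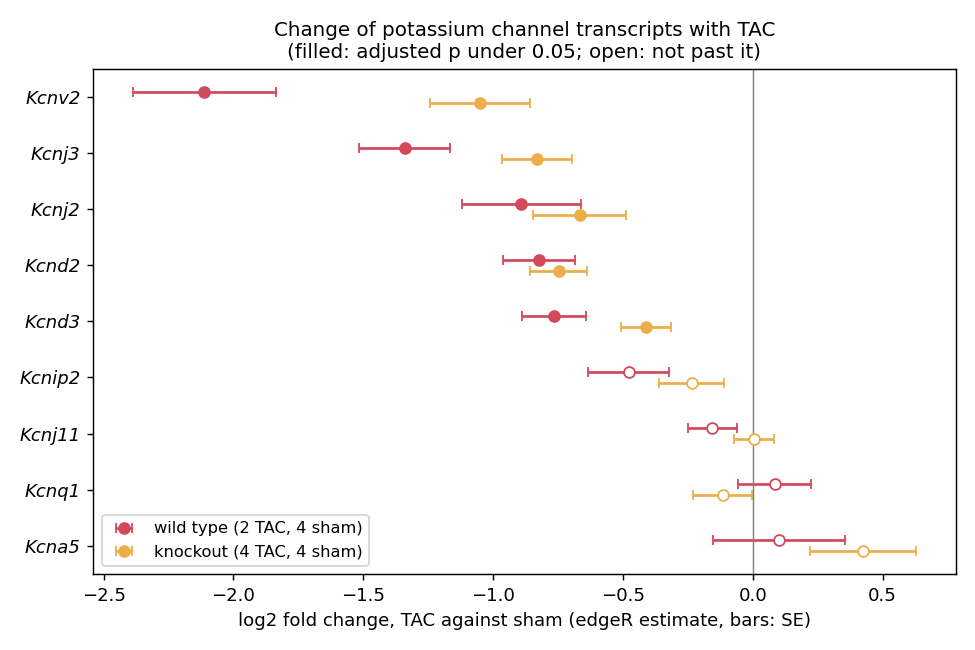
Log2 fold change of the 9 channel transcripts between TAC and sham hearts, with wild type in red and knockout in yellow. Points are edgeR estimates, bars are their SE, and filled points passed an adjusted p of 0.05. Kcnv2 and Kcnj3 have the most negative estimates in both genotypes, and Kcnj11, Kcnq1 and Kcna5 lie around 0 or above.

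Among the subunits of the fast transient outward current, both pore genes fell and the accessory gene did not pass. Kcnd2 was at 60.0, 55.3, 60.1 and 43.3 CPM in the wild-type sham hearts and at 30.3 and 31.5 CPM in the wild-type TAC hearts. The knockout sham hearts held 57.2, 73.4, 55.7 and 54.7 CPM of Kcnd2 and the knockout TAC hearts 35.2, 37.0, 35.8 and 35.5 CPM. Every TAC heart was below every sham heart, and the 4 knockout TAC hearts lay close together. The log2 change was −0.82 ± 0.14 (SE) in wild type (adjusted p = 0.00117, edgeR) and −0.75 ± 0.11 in knockout (adjusted p = 0.00139, edgeR). Without the library labelled wild-type TAC 1 the wild-type value was −0.80 (adjusted p = 0.0313, edgeR).

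Kcnd3, the second pore gene of this current, was at 23.7, 31.7, 26.6 and 29.4 CPM in wild-type sham and at 17.2 and 15.6 CPM in wild-type TAC hearts. In the knockouts Kcnd3 was at 29.2, 30.3, 25.6 and 24.8 CPM after sham and at 20.5, 21.0, 20.2 and 21.0 CPM after TAC. Again no TAC heart reached a sham heart. Kcnd3 fell by 0.77 ± 0.12 on the log2 scale in wild type (adjusted p = 0.000879, edgeR) and by 0.41 ± 0.10 in knockout (adjusted p = 0.0139, edgeR). The wild-type value was −0.84 without the library labelled wild-type TAC 1 (adjusted p = 0.0125, edgeR). The knockout call was lost without knockout sham 2 (−0.36, adjusted p = 0.0557) and with coding counts alone (−0.51, adjusted p = 0.173), as was the wild-type call with coding counts alone (−0.69, adjusted p = 0.150, edgeR in each case).

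Kcnip2, whose product binds the Kcnd pores and raises their number at the cell surface, was at 239, 302, 259 and 272 CPM in wild-type sham and at 170 and 216 CPM in wild-type TAC hearts. The knockout hearts held 292, 292, 342 and 272 CPM of Kcnip2 after sham and 224, 242, 331 and 221 CPM after TAC. Both wild-type TAC hearts were below all 4 sham hearts, whereas in the knockouts the ranges overlapped through knockout TAC 3 alone. The estimates were −0.48 ± 0.16 in wild type (adjusted p = 0.0587, edgeR) and −0.23 ± 0.12 in knockout (adjusted p = 0.226, edgeR). Without the library labelled wild-type TAC 1 the wild-type value was −0.31 (adjusted p = 0.465, edgeR). Kcnip2 passed in knockout without knockout TAC 3 (−0.39, adjusted p = 0.0240, edgeR) and in wild type without wild-type TAC 2 (−0.66, adjusted p = 0.0413), without wild-type sham 1 (−0.53, adjusted p = 0.0461) or with DESeq2 (−0.48, adjusted p = 0.0289).

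Kcnv2 encodes a subunit with no current of its own that joins voltage-gated potassium channel pores and changes their gating, and it had the most negative estimate of the 9 in both genotypes. It was at 21.5, 20.9, 19.6 and 19.4 CPM in wild-type sham hearts and at 3.68 and 5.70 CPM in wild-type TAC hearts. The knockout sham hearts held 29.9, 26.8, 15.3 and 27.0 CPM of Kcnv2 and the knockout TAC hearts 14.3, 12.9, 12.4 and 8.26 CPM. The knockout TAC hearts thus lay between the wild-type TAC and all sham hearts, with no overlap on either side. Kcnv2 fell by 2.11 ± 0.28 on the log2 scale, or 4.32-fold, in wild type (adjusted p = 0.000175, edgeR) and by 1.05 ± 0.19, or 2.07-fold, in knockout (adjusted p = 0.00395, edgeR). The wild-type value was −1.83 without the library labelled wild-type TAC 1 (adjusted p = 0.0111, edgeR). The lowest library held 48 counts of Kcnv2, and its SE in wild type was the largest of the 5.

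Of the delayed rectifier genes, neither passed in any comparison under the main settings. Kcna5, the pore of an ultrarapid current, was at 18.3, 29.7, 19.5 and 30.1 CPM in wild-type sham and at 26.9 and 25.7 CPM in wild-type TAC hearts. Its knockout values were 29.9, 19.9, 22.8 and 37.8 CPM after sham and 47.4, 35.4, 37.5 and 28.3 CPM after TAC. The ranges overlapped in both genotypes, and the log2 estimates were 0.10 ± 0.25 in wild type and 0.42 ± 0.21 in knockout (adjusted p = 0.845 and 0.184, edgeR). Without a filter on low counts Kcna5 passed as higher in knockout (0.44, adjusted p = 0.0464, edgeR). Kcnq1, the pore of the slow delayed rectifier, ranged from 38.6 to 58.8 CPM over all 14 hearts. Its log2 estimates with TAC were 0.08 ± 0.14 in wild type and −0.12 ± 0.11 in knockout (adjusted p = 0.755 and 0.530, edgeR). Kcne1, its accessory subunit, singled out for that role after its values were seen, was at 2.80 to 9.68 CPM in wild-type sham hearts and did not pass with TAC in either genotype (log2 −0.10 ± 0.38 and −0.02 ± 0.31).

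Among the inward rectifier genes, the resting-potential gene Kcnj2 and the acetylcholine-activated Kcnj3 fell, and the ATP-sensitive Kcnj11 did not pass. Kcnj3 was at 115, 118, 116 and 95.2 CPM in wild-type sham and at 36.8 and 51.0 CPM in wild-type TAC hearts. The knockout hearts held 131, 138, 150 and 121 CPM of Kcnj3 after sham and 63.5, 81.7, 95.7 and 62.2 CPM after TAC. TAC hearts lay below all sham hearts of their genotype. Kcnj3 fell by 1.34 ± 0.18 on the log2 scale, or 2.53-fold, in wild type (adjusted p = 0.000176, edgeR) and by 0.83 ± 0.13, or 1.78-fold, in knockout (adjusted p = 0.00216, edgeR). Without the library labelled wild-type TAC 1 the wild-type value was −1.12 (adjusted p = 0.0110, edgeR).

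Kcnj3 is best known from the atria. Of the 10 atrial markers 7 were tested, and with TAC 3 fell and 1 rose in wild type and 1 fell and 1 rose in knockout. These are 57.1% and 28.6% of the tested markers, beside 12.2% and 13% of all tested genes. Sbk2 fell in both genotypes (−2.90 ± 0.49 and −1.19 ± 0.31, adjusted p = 0.00123 and 0.0226, edgeR) and Dkk3 rose in both (2.00 ± 0.47 and 1.49 ± 0.46, adjusted p = 0.0103 and 0.0441, edgeR). Sbk2 averaged only 0.82 CPM in wild-type TAC hearts. Tbx5 (−0.98 ± 0.28, adjusted p = 0.0288) and Stard10 (−0.79 ± 0.24, adjusted p = 0.0430, both edgeR) also fell in wild type. The other 3 markers, Myl7, Sln and Bmp10, did not pass the filter on low counts, and the part of these markers in the fall of Kcnj3 was not tested. Its exons share 1621 bases (31.1% of their length) with Gm26794, an RNA on the opposite strand, which stood at 0.09 to 1.23 CPM. No count of Kcnj3 was set aside as ambiguous in any of the 14 libraries. Its pore partner Kcnj5, from the list of other potassium channel genes, also fell, by 0.73 ± 0.12 in wild type (adjusted p = 0.00101, edgeR) and 0.56 ± 0.09 in knockout (adjusted p = 0.00248, edgeR). Kcnj5 was at 98.4 to 122 CPM in wild-type sham, 106 to 131 in knockout sham, 66.3 and 72.3 in the wild-type TAC hearts and 73.1 to 92.5 in the knockout TAC hearts. No TAC heart reached a sham heart for Kcnj5.

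Kcnj2 was at 106, 98.4, 121 and 104 CPM in wild-type sham and at 59.2 and 56.6 CPM in wild-type TAC hearts. In the knockouts it was at 106, 127, 113 and 70.7 CPM after sham and at 40.9, 68.1, 81.8 and 70.3 CPM after TAC. The wild-type groups were far apart, and the knockout groups overlapped because knockout sham 4 was low and knockout TAC 3 was high. Kcnj2 fell by 0.89 ± 0.23 in wild type (adjusted p = 0.0183, edgeR) and by 0.67 ± 0.18 in knockout (adjusted p = 0.0259, edgeR). The wild-type call was lost without either wild-type TAC library (−0.92, adjusted p = 0.132 without the one labelled wild-type TAC 1, and −0.86, adjusted p = 0.0793 without wild-type TAC 2, edgeR). The knockout call was lost on leaving out any of knockout TAC 1, 2 or 4 or knockout sham 1, 2 or 3 (−0.70 to −0.50, adjusted p = 0.0516 to 0.0933, edgeR). With coding counts alone neither call was kept (−0.83 and −0.87, adjusted p = 0.153 and 0.060, edgeR). Kcnj12, a second inward rectifier pore gene singled out after its values were seen, fell in wild type by 0.61 ± 0.18 (adjusted p = 0.0394, edgeR) and stood at −0.24 ± 0.14 in knockout (adjusted p = 0.297, edgeR).

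Kcnj11 was at 177, 193, 180 and 197 CPM in wild-type sham and at 157 and 178 CPM in wild-type TAC hearts. Its knockout values were 170, 174, 184 and 177 CPM after sham and 170, 174, 205 and 159 CPM after TAC. With the smallest SE of the 9, its log2 estimates were −0.16 ± 0.09 in wild type and 0.004 ± 0.08 in knockout (adjusted p = 0.321 and 0.981, edgeR). Abcc9, the sulfonylurea receptor subunit that joins this pore in ventricular muscle, fell by 0.56 ± 0.12 in wild type (adjusted p = 0.00501, edgeR) and by 0.41 ± 0.09 in knockout (adjusted p = 0.0104, edgeR). Abcc9 was at 374, 492, 444 and 440 CPM in wild-type sham and 270 and 325 CPM in wild-type TAC hearts, and its knockout ranges of 499 to 579 CPM after sham and 363 to 454 CPM after TAC did not overlap either. The other receptor gene, Abcc8, and the other pore gene, Kcnj8, both singled out after their values were seen, did not pass with TAC in either genotype.

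The other potassium channel genes, a list of 57 of which 42 were tested, moved in both directions. In wild-type TAC hearts 9 of the 42 fell, 2 rose and 31 did not pass. In the knockout 4 fell, 1 rose and 37 did not pass, and the list's median log2 change was −0.13 in wild type and −0.10 in knockout. The share that passed was 26.2% in wild type, beside 12.2% of all tested genes, and 11.9% in knockout, near the background of 13%. Kcnj15, an inward rectifier gene at low level here, rose in both genotypes (1.39 ± 0.17 and 0.98 ± 0.16 on the log2 scale, adjusted p = 0.000116 and 0.00216, edgeR). Kcnh2, the pore of the rapid delayed rectifier, fell by 0.88 ± 0.21 in wild type and by 0.61 ± 0.16 in knockout (adjusted p = 0.0111 and 0.0243, edgeR), with knockout ranges that overlapped. Among the genes that also passed in wild type were Kcnk3, an acid-sensitive leak channel gene (−0.44 ± 0.09, adjusted p = 0.00379), the small-conductance calcium-activated channel gene Kcnn2 (−0.63 ± 0.17, adjusted p = 0.0211) and the inward rectifier gene Kcnj14 (1.35 ± 0.35, adjusted p = 0.0177, all edgeR). Kcnt1, a sodium-activated channel gene at 1.07 CPM on average in knockout TAC hearts, passed in knockout (−1.03 ± 0.32, adjusted p = 0.0426, edgeR). On leaving out the library labelled wild-type TAC 1, 1 heart remains in that group and calls are not read. The wild-type estimates were then −0.66 for Kcnj5, −0.48 for Kcnk3, 1.41 for Kcnj15, −0.75 for Kcnh2, −0.43 for Abcc9 and −0.64 for Kcnj12. The list's wild-type median was −0.14 in that setting and −0.31 without wild-type TAC 2. Without knockout sham 4 and knockout TAC 3 the knockout count was 3 lower and 2 higher. With the clock gene score as a covariate 1 fell and 1 rose in wild type and 1 rose in knockout. The share of all tested genes called in these 2 settings is not given here. The difference between the genotypes' TAC effects passed for none of the 42 (edgeR), and 7.14% had an unadjusted p under 0.05, near the 6.53% of all tested genes. DESeq2 called Kcnk3 for this difference (0.48, adjusted p = 0.0256).

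**Figure D3:**
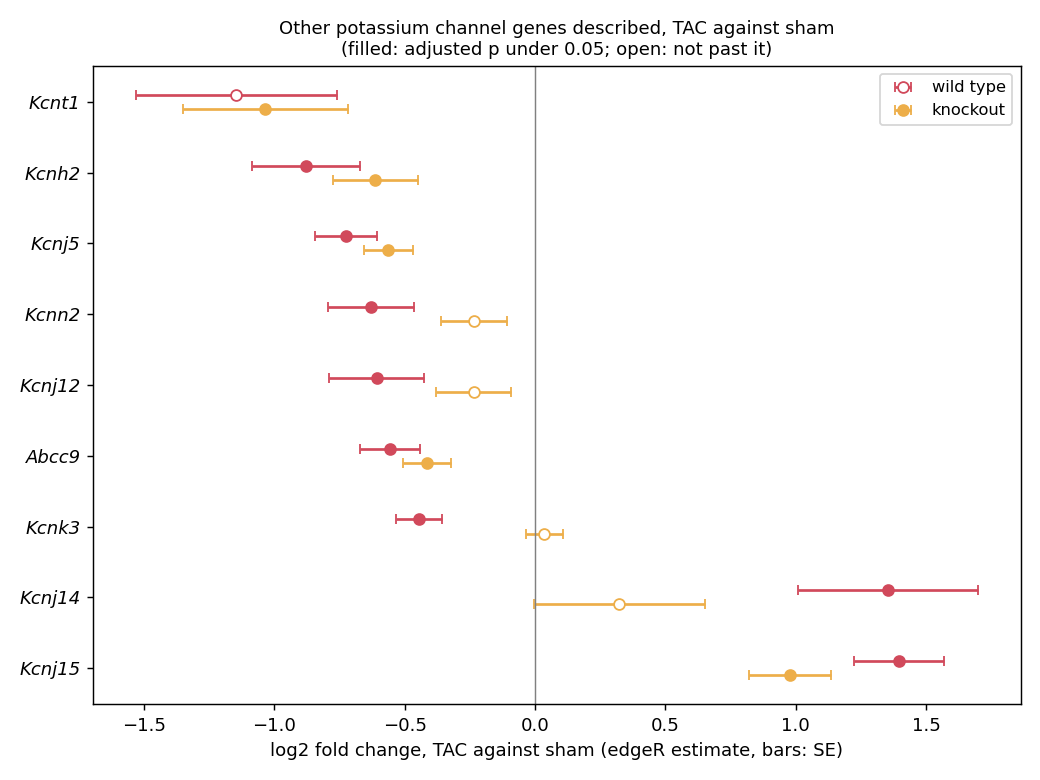
Log2 fold change between TAC and sham hearts for 9 of the other potassium channel genes that passed in wild type (red), knockout (yellow) or both, namely those described in the text. Points are edgeR estimates, bars are their SE, and filled points passed an adjusted p of 0.05. Kcnj5, Abcc9, Kcnh2 and Kcnj15 are filled in both genotypes.

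The wider channel lists behaved as follows. Of 28 sodium, calcium and pacemaker channel genes, 4 fell and 1 rose in wild type, and 5 fell and 2 rose in knockout, with list medians of −0.11 and −0.17 on the log2 scale. These are 17.9% and 25.0% of the list, beside 12.2% and 13% of all tested genes. Cacnb2, a calcium channel beta subunit gene, fell in both (−0.61 ± 0.12 and −0.58 ± 0.10, adjusted p = 0.00404 and 0.00239, edgeR). Of 23 tested regulators of cardiac channel genes, 5 fell in wild type and 2 in knockout, and none rose, with list medians of −0.32 and −0.08, which is 21.7% and 8.70% of the list beside the same backgrounds. Mef2a, a muscle transcription factor gene, fell in both (−0.37 ± 0.10 and −0.35 ± 0.08, adjusted p = 0.0260 and 0.0136, edgeR). Klf15, a Krüppel-like factor known to drive Kcnip2, fell in wild type (−0.73 ± 0.18, adjusted p = 0.0137, edgeR) and stood at −0.17 ± 0.14 in knockout (adjusted p = 0.440, edgeR). Its values of 27.5 CPM (the library labelled wild-type TAC 1) and 43.2 CPM (wild-type TAC 2) lay below 53.0 to 70.8 CPM in wild-type sham hearts. Irx5, known as a repressor of Kcnd2, fell in wild type (−0.78 ± 0.24, adjusted p = 0.0449, edgeR). In knockout Irx5 did not pass, at 6.20 to 10.7 CPM after sham and 6.74 to 10.8 CPM after TAC. The part of Irx5 in the Kcnd2 levels was not tested. Of 12 channel anchoring genes, Ank2, the ankyrin that holds channels and transporters at the membrane, fell in both genotypes (−0.48 ± 0.08 and −0.36 ± 0.06, adjusted p = 0.00102 and 0.00316, edgeR), 2 rose in each genotype and 9 did not pass in each, with list medians of 0.15 and 0.18 and 25.0% of the list called in each. Without the library labelled wild-type TAC 1, 1 heart remains in that group and calls are not read. The wild-type estimates were then −0.56 for Cacnb2, −0.44 for Klf15, −0.66 for Irx5 and −0.42 for Ank2. In that setting the wild-type medians of the channel, regulator and anchoring lists were −0.23, −0.25 and 0.03. Without wild-type TAC 2 they were −0.06, −0.30 and 0.24. With the clock gene score as a covariate no gene of these 3 lists passed as lower in either genotype, and Cacnb2 stood at −0.40 and −0.45, Mef2a at −0.40 and −0.37, and Ank2 at −0.36 and −0.27 (adjusted p = 0.0545 to 0.193, edgeR). With the 10-week libraries alone the 3 lists had 0 calls in knockout, where few genes passed in all. In wild type 4 of the channel list fell, none of the regulators passed, and 2 anchoring genes rose and 1 fell. The share of all tested genes called in that setting is not given here.

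Knockout and wild-type hearts were compared after sham and after TAC to see how the transcripts differed by Clk3 genotype. After sham none of the 9 passed (edgeR, beside 0.888% of all tested genes), 1 had an unadjusted p under 0.05 (18% of all tested genes), and DESeq2 also called none. That gene was Kcnj3, higher in all 4 knockout sham hearts than in all 4 wild-type sham hearts (log2 0.28 ± 0.13, adjusted p = 0.276, edgeR), as were 6.39% of all tested genes. The other 8 overlapped between genotypes, with log2 estimates from −0.08 to 0.28.

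After TAC, Kcnv2 and Kcnj3 were higher in knockout than in wild-type hearts and the other 7 did not pass. Among all tested genes 1.48% passed and 0.377% passed as higher. Kcnv2 was at 12.0 ± 2.61 CPM (SD, n = 4) in knockout TAC and 4.69 ± 1.43 CPM (SD, n = 2) in wild-type TAC hearts, a log2 difference of 1.34 ± 0.28 (adjusted p = 0.0264, edgeR). Kcnj3 was at 75.8 ± 16.0 against 43.9 ± 10.1 CPM, a log2 difference of 0.79 ± 0.17 (adjusted p = 0.0336, edgeR). Kcnd3, Kcnip2, Kcna5 and Kcnd2 were also higher in all 4 knockout TAC hearts than in both wild-type TAC hearts without passing (0.33, 0.40, 0.49 and 0.21 on the log2 scale, and 0.40, 0.24, 0.53 and 0.19 without the library labelled wild-type TAC 1). In all, 6 of the 9 did not overlap in this direction, beside 11% of all tested genes. This count takes the library labelled wild-type TAC 1 as wild type, against its Clk3 and Gm8730 levels. That library lay below wild-type TAC 2 for Kcnv2, Kcnj3, Kcnd2 and Kcnip2, and above it for Kcnd3 and Kcna5. Of the lists, 3 genes passed as higher in knockout after TAC. These were Kcnn2 (0.70 ± 0.17, adjusted p = 0.0494), Ank2 (0.33 ± 0.08, adjusted p = 0.0497) and Ppargc1a, a coactivator of mitochondrial genes (0.79 ± 0.16, adjusted p = 0.0218, all edgeR). With wild-type TAC 2 as the only wild-type TAC heart, the estimates of these 3 were smaller, at 0.50, 0.27 and 0.67. Calls for the lists are not read in that setting. These comparisons use the same wild-type TAC libraries as the wild-type TAC comparison, so a low value there enters both.

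Both calls after TAC depended on single libraries. Without the library labelled wild-type TAC 1, whose Clk3 and Gm8730 levels were those of the knockouts, the differences were 1.06 for Kcnv2 (adjusted p = 0.235, edgeR) and 0.58 for Kcnj3 (adjusted p = 0.280, edgeR). That library held the lower of the wild-type TAC values for both genes, so the difference was larger on leaving out wild-type TAC 2 (1.69 and 1.05). None of the 9 passed on leaving out knockout TAC 2 or knockout TAC 3, and Kcnj3 alone passed without knockout TAC 1. No member passed with the 10-week libraries alone or with only these 2 groups in the fit.

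**Figure D4:**
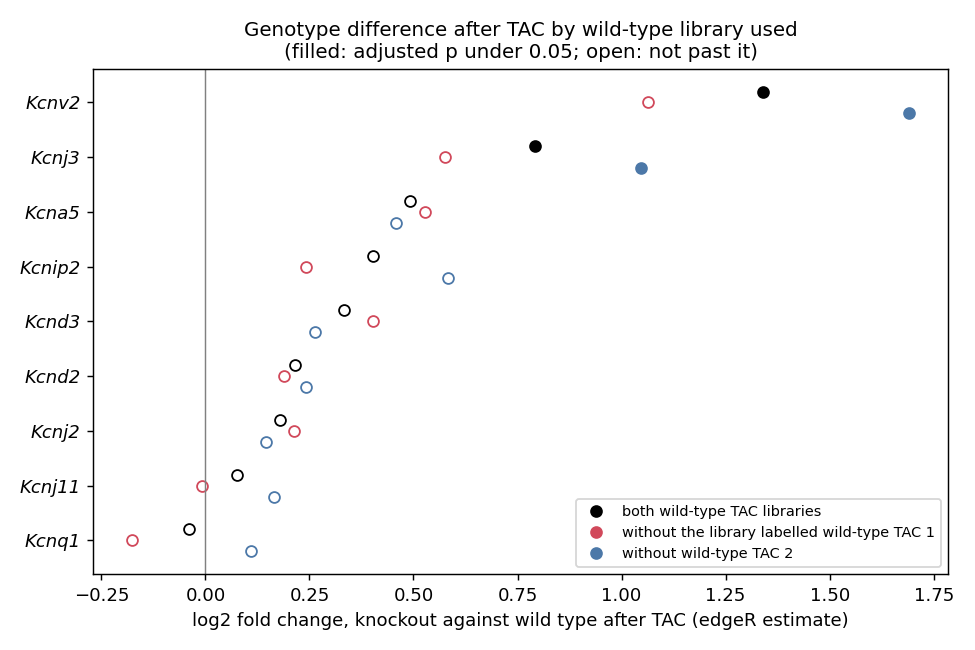
Log2 fold change between knockout and wild-type hearts after TAC for the 9 channel transcripts, estimated by edgeR with both wild-type TAC libraries (black), without the library labelled wild-type TAC 1 (red) and without wild-type TAC 2 (blue). Filled points passed an adjusted p of 0.05. Kcnv2 and Kcnj3 are filled in black and blue and open in red.

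The difference between the TAC effects of the genotypes was tested directly. None of the 9 passed (edgeR, beside 0.0192% of all tested genes) and DESeq2 also called none, while 3 had an unadjusted p under 0.05, beside 6.53% of all tested genes. Those were Kcnv2 (1.06 ± 0.33, adjusted p = 0.521), Kcnj3 (0.51 ± 0.22, adjusted p = 0.711) and Kcnd3 (0.36 ± 0.15, adjusted p = 0.719, all edgeR), each with the smaller fall in knockout. On leaving out the library labelled wild-type TAC 1 the differences were 0.78 for Kcnv2, 0.30 for Kcnj3 and 0.43 for Kcnd3 (adjusted p = 0.857 to 0.928, edgeR), and without wild-type TAC 2 they were 1.41, 0.77 and 0.29. Without a filter on low counts Kcnv2 passed (1.08, adjusted p = 0.0401, edgeR). Kcnd2 had nearly the same TAC estimate in both genotypes (difference 0.07 ± 0.17).

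Several members had levels that went with the clock gene score, which itself separated most TAC from most sham hearts. Of 17 core clock and clock output genes, 7 fell and 1 rose in wild-type TAC hearts, and 5 fell in knockout TAC hearts, with list medians of −0.71 and −0.48 on the log2 scale. These are 47.1% and 29.4% of the list, beside 12.2% and 13% of all tested genes. The list's wild-type median was −0.73 on leaving out the library labelled wild-type TAC 1 and −0.69 on leaving out wild-type TAC 2. Knockout sham 4, whose score was like that of the TAC hearts, held the lowest Kcnj2 value of the 8 sham hearts (70.7 CPM) and the lowest Kcnh2 value (59.1 CPM against 75.7 to 96.5 in the others). Knockout TAC 3, whose score was near that of the sham hearts, held the highest Kcnj2, Kcnip2, Kcnj3, Kcnj11 and Kcnh2 values of the 6 TAC hearts (81.8, 331, 95.7, 205 and 71.6 CPM). Kcnip2, Kcnj3 and Kcnj11 in knockout sham 4 (272, 121 and 177 CPM) lay within the range of the other sham hearts of both genotypes. Its Kcnip2 and Kcnj3 values were the lowest of the knockout sham hearts, and its Kcnj11 value was not. Kcnd2 and Kcnd3 did not go with the score in knockout TAC 3, at 35.8 and 20.2 CPM, within 2 CPM of the other knockout TAC hearts. Kcnv2 lay with the hearts of like surgery in both libraries (27.0 CPM in knockout sham 4 and 12.4 CPM in knockout TAC 3).

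With the score as a covariate the Kcnj2 estimates shrank to −0.33 in wild type (adjusted p = 0.539, edgeR) and −0.27 in knockout (adjusted p = 0.457, edgeR). Kcnv2 stayed at −2.16 and −1.08 and Kcnj3 at −1.02 and −0.62, all past the threshold (adjusted p = 0.00435 to 0.0469, edgeR). Kcnd2 passed in knockout (−0.66, adjusted p = 0.0335) but not in wild type (−0.69, adjusted p = 0.0642), and Kcnd3 passed in wild type (−0.68, adjusted p = 0.0443) but not in knockout (−0.35, adjusted p = 0.169, all edgeR). Leaving out knockout sham 4 and knockout TAC 3 together, an alternative added after the data were seen, gave −0.94 for Kcnj2 (adjusted p = 0.00185), −1.01 for Kcnj3 (adjusted p = 0.000489) and −0.43 for Kcnip2 (adjusted p = 0.0174) in knockout (all edgeR). In that setting Kcnv2 and Kcnj3 no longer passed between genotypes after TAC (1.31 and 0.65, adjusted p = 0.0675 and 0.0690, edgeR). The labels give no time of day, and TAC and the score cannot be told apart in the remaining libraries.

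**Figure D5:**
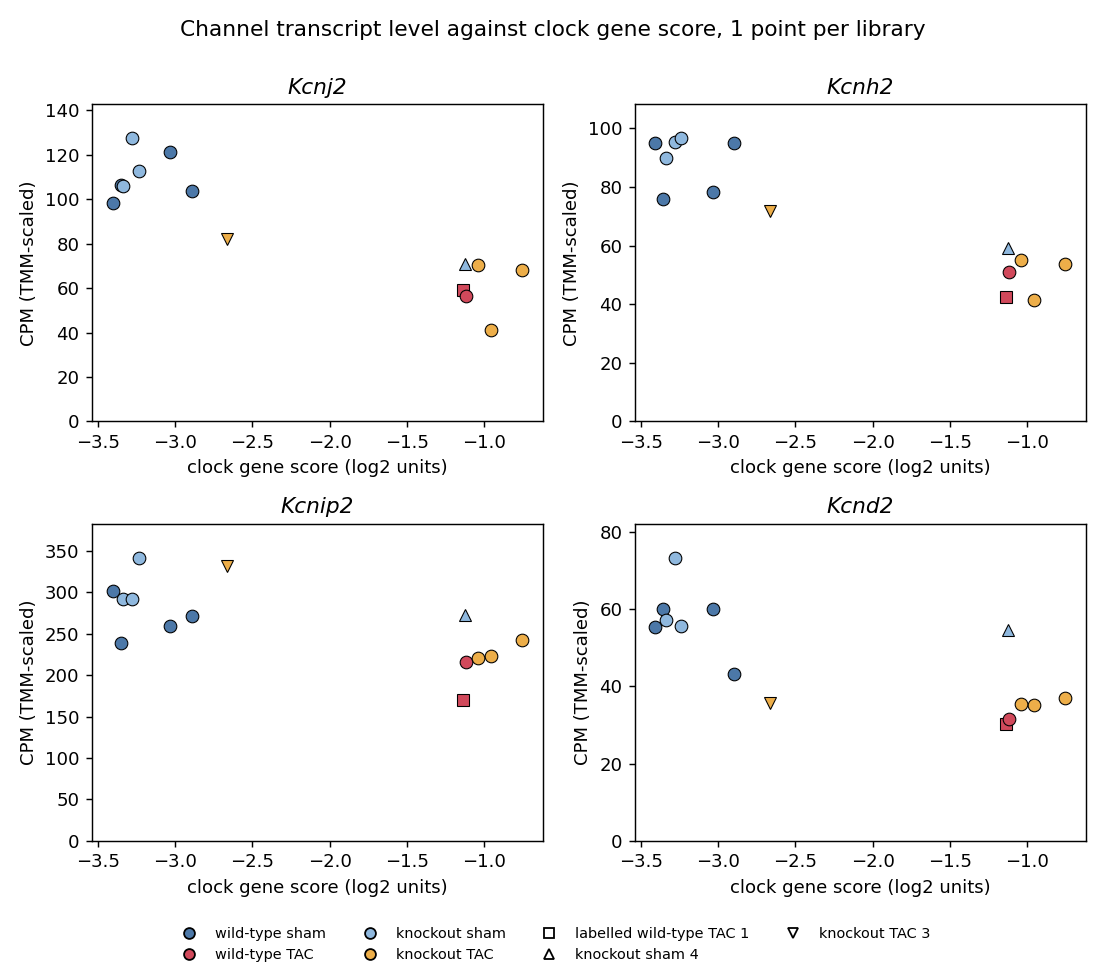
Level of Kcnj2, Kcnh2, Kcnip2 and Kcnd2 in CPM (vertical axis, from 0) against the clock gene score in log2 units (horizontal axis), with 1 point per library coloured by group. Knockout sham 4 (upward triangle) lies among the TAC hearts on the horizontal axis and knockout TAC 3 (downward triangle) near the sham hearts. Kcnj2 and Kcnh2 in these 2 libraries lie between the other sham and the other TAC hearts, and Kcnd2 lies with the hearts of like surgery.

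With the 10-week libraries alone, which leaves 2 sham hearts in each genotype, Kcnv2, Kcnj3, Kcnd2 and Kcnd3 still passed in wild type. In knockout none of the 9 passed in that setting, where 15 genes passed in all. The knockout estimates were −0.82 for Kcnv2, −0.84 for Kcnj3, −0.62 for Kcnd2, −0.49 for Kcnj2 and −0.29 for Kcnd3 (adjusted p = 0.0604 to 0.331, edgeR). One of the 2 knockout sham hearts left was knockout sham 4.

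The deposited files also split each gene's counts into coding and untranslated parts of its exons, a second readout of the same transcripts. In wild-type sham hearts the untranslated share ranged from 29.5% ± 2.81 for Kcna5 and 34.3% ± 4.51 for Kcnq1 to 84.9% ± 3.47 for Kcnd3 (SD, n = 4). For Kcnd3 the share was 83.8% ± 5.49 in the wild-type TAC hearts and 84.5% ± 1.78 in the knockout TAC hearts, and for Kcnv2 it was 80.6% ± 2.55 in wild-type sham and 80.9% ± 0.52 in wild-type TAC hearts. No member's ratio of untranslated to coding counts passed in any of 5 comparisons (limma, 0 of 9 in each, and 0 of 9 at an unadjusted p under 0.05). No gene of 10808 passed in any of them (limma), while an unadjusted p under 0.05 was reached by 5.51% for TAC in wild type, 9.61% for TAC in knockout, 4.95% between sham genotypes, 4.53% between genotypes after TAC and 3.22% for the difference of the TAC effects.

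For each member the 2 tested genes with the most similar log2 CPM over the 14 libraries were noted as a description, with no test, since these libraries share groups, depth and clock state. Kcnd2 was most like Il15 (r = 0.97) and Entpd5 (r = 0.97), and Kcnd3 most like Cobll1 (r = 0.94) and Slc41a1 (r = 0.94). Kcnv2 was most like the mitochondrial fatty acid and amino acid breakdown genes Acaa2 (r = 0.97) and Mccc2 (r = 0.97). Kcnip2 was most like Map7 (r = 0.93) and Abcc9 (r = 0.93), the latter at r = 0.90 once group means were removed. Kcnj2 was most like Grhl2 and Zc3h6 (r = 0.94 each), and Kcnj3 most like Gm48882 and Ric8b (r = 0.97 each). The genes without a TAC call had lower values, with Kcna5 nearest to Jun and S1pr1 (r = 0.89 each), Kcnq1 to Elk1 (r = 0.89) and Wdr13 (r = 0.87), and Kcnj11 to Ppp5c (r = 0.86) and Dedd2 (r = 0.85).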

How the data were processed

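RNA of 14 hearts was sequenced after column extraction, poly-dT enrichment and strand-specific library preparation, per the labels' protocols. Listed in the submitters' processing notes are STAR 2.4.2a, bcl2fastq 2.17.1.14, Picard 2.10.3 and the build mm10 (GRCm38). The authors deposited raw counts per gene and library, with the coding, untranslated and ambiguous parts in columns of their own, per the file headers. The strand setting of the counting is not given in the sources used here. Rows for reads in no gene (10.7% to 19.0% of gene, no-gene and ambiguous counts together) stayed out of library sizes.

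Gene identifiers were matched to GENCODE M21 (51719 of 51912 rows found). In R 4.3.3, edgeR 4.0.16 fitted all 14 libraries with 1 coefficient per group (filterByExpr, minimum count 10, TMM factors, quasi-likelihood F test, Benjamini-Hochberg adjustment over 15651 genes, threshold 0.05). The biological coefficient of variation was 11.8%, and 36261 genes were not tested. SE of a log2 fold change was derived from its F statistic. CPM and RPKM were computed here from the deposited counts, RPKM with merged exon lengths. limma 3.58.1 tested log2 ratios of untranslated to coding counts (pseudocount 0.5, at least 10 counts of each part on average). Summed marker levels were described. DESeq2 1.42.0, other filters, coding counts, age, the clock gene score and leaving out libraries were alternatives. The scripts were tested on simulated data.

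The members and gene lists were chosen with earlier results of these data known. Named were all 9 members, up to 8 other potassium channel genes past the threshold per comparison by p, up to 4 genes per further list, and the 2 genes most like each member. All pairs of libraries within a group differed beyond counting noise. Replicate numbers follow accession order and pair nothing. Some genes of these lists are not reported here.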

Additional observations from a re-analysis of the deposited data

Results flagged for a closer look

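Of 93 groups of 4 libraries examined for a single library far from the other 3, 9 had one, and chance gives about 1 in 20. Among member levels these were Kcnj3 in wild-type sham 4 (95.2 CPM against 115 to 118 in the others), Kcnq1 in wild-type sham 2 (48.7 CPM against 40.0 to 41.3) and Kcnd2 in knockout sham 2 (73.4 CPM against 54.7 to 57.2). The untranslated share of counts stood apart in wild-type sham 1 for Kcnd3 (90.1%) and Kcnj2 (91.6%), the library with the highest overall untranslated share (36.2%). That library also had the highest share of all libraries for Kcnd2 (80.1%), Kcnip2 (65.1%), Kcnj3 (86.5%), Kcnj11 (74.3%) and Kcnq1 (40.6%), but not for Kcnv2 and Kcna5. No member's ratio passed on leaving out any library. The part of wild-type sham 1 in the calls lost with coding counts alone was not tested. Kcnv2 had an untranslated share of 76.8% in wild-type sham 2, apart from the other wild-type sham hearts. The clock gene score stood apart in knockout sham 4 (−1.12) and in knockout TAC 3 (−2.67). The endothelial marker sum of knockout TAC 3 was 1990 CPM, below the other knockout TAC hearts.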

How the results depend on the processing

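Of 890 recomputed values, some were estimates of single genes and some were counts of members past the threshold. Among the single-gene estimates 651 kept their direction and their side of the threshold, 37 calls were lost, 9 were gained and 32 estimates changed sign. Among the counts of members 146 were equal or close to the main count and 15 moved further from it. These include the counts for the ratio of untranslated to coding counts and for the sham genotypes. Those were 0 in the main setting and 0 on leaving out any library, so their equality says little about how stable the results are. The number of members past the threshold in wild-type TAC against sham (5) was 3 with coding counts alone and 3 with the clock gene score as a covariate, and 4 to 6 on leaving out a library. In knockout TAC against sham (5) it was 0 with 10-week libraries alone, 3 with coding counts alone, 3 with the clock covariate, and 3 to 6 on leaving out a library. Between genotypes after TAC (2) it was 1 with coding counts alone, 0 with 10-week libraries alone, 0 with only these 2 groups in the fit, 0 without knockout sham 4 and knockout TAC 3, and 0 to 2 on leaving out a library. For the difference of TAC effects (0) it was 1 without a filter on low counts. Where the cause of a change is not given by fewer samples or counts, the cause was not tested. The share of all tested genes called in each setting is not given here, so a change in these counts is not read as particular to the members. Where leaving out a library left 1 wild-type TAC heart, that heart was assumed to vary like the other groups.

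The log2 estimates that changed sign were all far from the threshold. With the clock covariate these were Kcna5 in wild-type TAC (−0.242), Kcnj2 between sham genotypes (0.0412) and Kcnq1 in knockout TAC (0.00667). With coding counts alone they were Kcnd2 and Kcnj2 in the difference of TAC effects (−0.0266 and −0.0397), Kcnd3 and Kcnj2 between sham genotypes (0.0770 and 0.124) and Kcnj11 in knockout TAC (−0.0650). With 10-week libraries alone Kcnj11 in knockout TAC was −0.0319. Without knockout sham 4 and knockout TAC 3 they were Kcna5, Kcnd3 and Kcnj2 between sham genotypes (−0.0337, 0.00962 and 0.0881), Kcnj11 in knockout TAC (−0.0721) and between genotypes after TAC (−0.00560), and Kcnj2 in the difference of TAC effects (−0.0392). On leaving out 1 library, Kcna5 spanned −0.00828 to 0.208 in wild-type TAC and −0.0334 to 0.295 between sham genotypes, Kcnd3 −0.0903 to 0.0430 and Kcnj2 −0.155 to 0.0880 between sham genotypes. Kcnj11 then spanned −0.0759 to 0.0517 in knockout TAC and −0.00792 to 0.165 between genotypes after TAC, and Kcnq1 −0.189 to 0.00315 in knockout TAC, −0.0652 to 0.221 in wild-type TAC and −0.176 to 0.110 between genotypes after TAC.

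No paired analysis was possible because replicate numbers follow accession order and pair no samples. Depth limits Kcnv2 most (48 to 448 counts per library).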
